A study of Mus musculus with 34 samples.

Results

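The comparison described here sets wild-type hippocampus against wild-type striatum. It covers 12 of the 34 RNA sequencing libraries of the series, 6 from each region, chosen by the tissue and genotype in their labels, and the 17024 of 18548 listed genes whose mean over these 12 libraries was at least 10 normalized counts. All 12 libraries came from untreated male C57BL/6J mice at postnatal day 56 that carried no Myt1l mutation. The other 22 libraries are wild-type prefrontal cortex and the 3 regions of Myt1l heterozygotes, mice with a mutation in 1 copy of the gene for the neuronal zinc finger factor Myt1l. The heterozygous allele is not described in the labels. Nothing in the labels says that the libraries of a group came from separate mice, so p-values measure the spread between these libraries, which may be partly technical.

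The hippocampus is a folded edge of the cerebral cortex whose principal cells, the pyramidal neurons of the CA fields and the granule neurons of the dentate gyrus, release glutamate. The striatum develops from the ventral telencephalon and consists mainly of medium spiny projection neurons, which release GABA. These fall into a class that carries the D1 dopamine receptor, substance P and dynorphin and a class that carries the D2 dopamine receptor, the adenosine receptor of the Adora2a gene and enkephalin, and cholinergic interneurons are scattered among them. Both regions hold the same kinds of glia and vessels, and the striatum is crossed by bundles of myelinated axons.

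A normalized count is the deposited value, an estimated read count divided by a scaling factor for the library. Sums per library were 27469738 to 27871456 in hippocampus and 26103069 to 27313394 in striatum. A gene is called when its adjusted p, from limma on log2(value + 1) with Benjamini-Hochberg adjustment over the 17024 genes, is under 0.05. Differences are hippocampus minus striatum on that log2 scale, so a positive value means a higher level in hippocampus, and the scale understates the difference of genes with low values. Values in libraries are given as a median with the lowest and the highest of the 6 libraries in brackets.

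The labelled tissues were set beside markers of their neurons and of neighbouring tissue. The hippocampal markers Lct and Dsp, genes of dentate granule cells in this tissue, stood at 1156 (1029 to 1252) and 1606 (1423 to 1795) normalized counts in hippocampus and at 6.70 (0 to 8.75) and 43.2 (22.8 to 73.5) in striatum. Penk, the enkephalin precursor, was at 15738 (14087 to 17544) in striatum and 464 (407 to 489.5) in hippocampus. Each of these 3 genes separated the 12 libraries by their labels. They were chosen with earlier results of these data known, so their separation is no independent check of the labels.

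The striatum libraries also carried RNA that is not typical of striatum, and in unequal amounts. Slc17a7, the vesicular glutamate transporter VGLUT1 of cortical and hippocampal neurons, was at 6304, 5294 and 8530.4 in striatum replicates 1, 4 and 5 but at 410.1, 648 and 884 in replicates 2, 3 and 6. Slc17a6, the transporter VGLUT2 of thalamic and hypothalamic neurons, ran the other way, at 2200.1, 2332 and 1563 in replicates 1, 4 and 5 and at 3421, 3417 and 3297 in replicates 2, 3 and 6. The hypothalamic peptide gene Oxt, for oxytocin, ranged from 189 in replicate 5 to 1358 in replicate 3. In hippocampus Oxt was at most 2.21. All 11 tested markers of septum, pallidum and hypothalamus and all 11 of thalamus and habenula were higher in striatum, with median differences of -5.02 and -2.31. The mean log2 level of the first list lay between 7.30 and 8.68 in the striatum libraries and between 2.75 and 3.91 in hippocampus, and that of the second list between 8.94 and 9.78 against 7.14 to 7.79. No defining marker of these lists that was tested was at 0 in striatum, whereas Otp, a hypothalamic homeobox gene, was listed at 0 in 6 of 6 hippocampus libraries and stood at 137 (33.9 to 221) in striatum. Hippocampus replicate 6 had little choroid plexus RNA: Ttr, transthyretin, was at 1298 there and at 26726 to 59896 in the other 5 hippocampus libraries, and without this library 7652 genes were called. The part of these RNAs in the differences below was not tested gene by gene. Wild-type calls were repeated with striatum replicates 2, 3 and 6 alone and with 1, 4 and 5 alone. The septum, pallidum and hypothalamus list had a mean log2 level of 8.41 to 8.68 in replicates 2, 3 and 6. In replicates 1, 4 and 5 that level was 7.30 to 8.35, so neither set is free of this RNA.

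**Figure D1:**
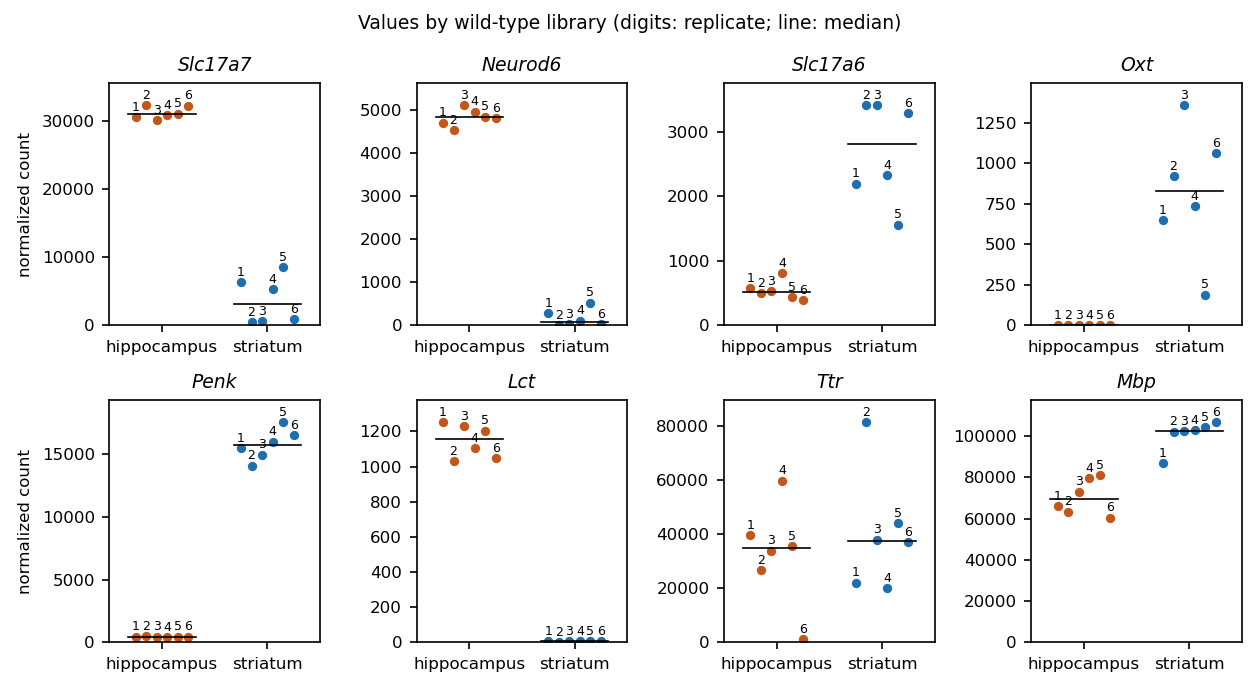
Normalized counts of 8 genes in the 6 wild-type hippocampus and 6 wild-type striatum libraries, each on its own linear axis. Points are libraries with their replicate number, and the line is the median. Striatum replicates 1, 4 and 5 lie above replicates 2, 3 and 6 in Slc17a7 and below them in Slc17a6, Penk and Lct separate the regions, and hippocampus replicate 6 lies lowest in Ttr.

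Hippocampus and striatum differed in a large part of the genes tested, mostly by little. Of 17024 genes, 8057 were called, which is 47.3%: 3937 (23.1%) were higher in hippocampus and 4120 (24.2%) higher in striatum. At least a 2-fold difference was found for 782 called genes (4.59%) higher in hippocampus and 1061 (6.23%) higher in striatum, so 77.1% of the calls lay under 2-fold. The median difference over all genes was -0.01. In 5080 genes (29.8%) all 6 libraries of a region lay above all 6 of the other. Among the called genes named below, libraries of the regions overlapped for Acta2, Aldh1a3, C1qb, Chrdl1, Chrnb4, Enpp6, Fos, Grik5, Htr2a, Kif15, Myrf, Nr3c1, Oprd1, Oprl1, Oprm1, Slc6a13, Trem2 and Tyrobp, and for the others all 6 libraries of the region named as higher lay above all 6 of the other. With striatum replicates 2, 3 and 6 alone 7524 genes were called, and with 1, 4 and 5 alone 6684.

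**Figure D2:**
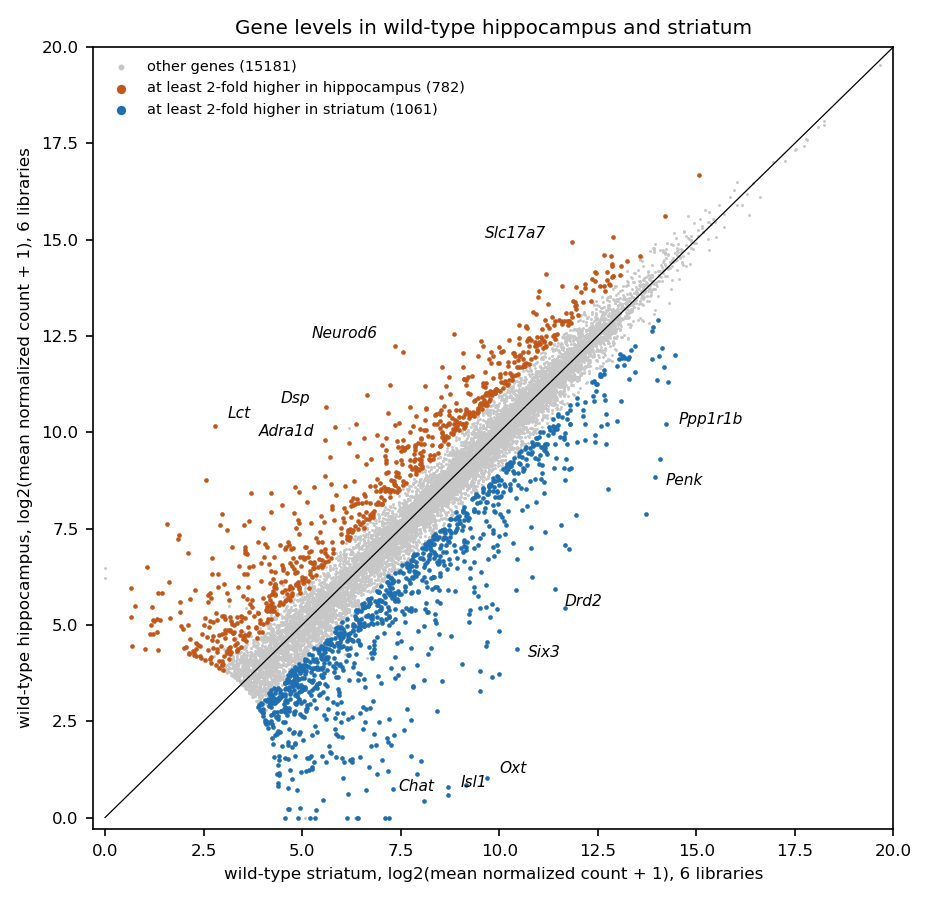
Mean normalized count of each gene in wild-type striatum (x axis) and wild-type hippocampus (y axis), both as log2(mean + 1) over 6 libraries, with the line of equality. The 782 and 1061 genes called with at least a 2-fold difference are coloured by region, and Lct, Neurod6 and Slc17a7 lie far above the line while Oxt, Isl1, Chat and Drd2 lie far below it.

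Genes with the largest differences included regional markers, transcription factors and receptors. Above 200 normalized counts in hippocampus, the largest differences were those of Lct (7.66, SE 0.46), which encodes the intestinal lactase, Slc9a4 (6.85, SE 0.61), a sodium and proton exchanger, and the neuronal helix-loop-helix genes Neurod6 (6.11, SE 0.90) and Neurod2 (5.59, SE 0.95). Slc9a4 was at 433 (313 to 527) in hippocampus and 3.80 (0 to 16.3) in striatum. Further genes were the desmosome gene Dsp (5.16, SE 0.24), 4921539H07Rik (5.13, SE 0.32), the zinc finger gene Prdm8 (4.66, SE 0.47), Tbata (4.46, SE 0.43) and the cytokine gene Il16 (4.34, SE 0.16). Adra1d, Spink8, Bhlhe22, the anion exchanger Slc26a4 and Slc17a7 were among the leading 15 as well, at differences of 4.27, 4.25, 4.08, 4.00 and 3.95.

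On the striatal side the leading 15 genes above 200 normalized counts mixed markers of medium spiny neurons, cholinergic neurons and hypothalamus. Oxt had the largest difference (-8.57, SE 0.44). Serpina9, a protease inhibitor gene, was at 586 (420.5 to 698) in striatum and 0.71 (0 to 1.36) in hippocampus, a difference of -8.35, SE 0.23. Isl1, Chat and Lhx8 came next, at -8.28, -7.98 and -7.79. The calcitonin receptor gene Calcr (-7.35, SE 0.47), the phosphatase gene Ptprv (-6.97, SE 0.68), the insulin receptor substrate Irs4 (-6.58, SE 0.52) and the T-cell coreceptor gene Cd4 (-6.28, SE 0.27) were also among them. So were Adora2a, Avp, Six3 and Sh3rf2, from -6.25 to -5.97. Oxt, Avp and Lhx8 belong to the list of septal, pallidal and hypothalamic markers given above.

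Among 41 gene lists of transmitter systems, transcription factors, signalling, glia and other tissue, 755 genes were tested and 592 called, or 78.4% against 47.3% of all genes. Called members made up 84.1% of 214 transmitter genes, 85.5% of 152 genes in the lists of transcription factors and neuron markers, 82.4% of 256 signalling genes and 59.3% of 108 glial and vascular genes. A 2-fold difference was reached by 46.3%, 59.2% and 37.5% of the first 3 sets and by 7.4% of the glial and vascular set, against 10.8% of all genes. Many of these genes were put in the lists because they are known markers of either region. Members and lists were also chosen with earlier results of these data known, so these shares are no test of the lists. Counts for single lists below stand beside 23.1% of all genes higher in hippocampus and 24.2% higher in striatum.

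**Figure D3:**
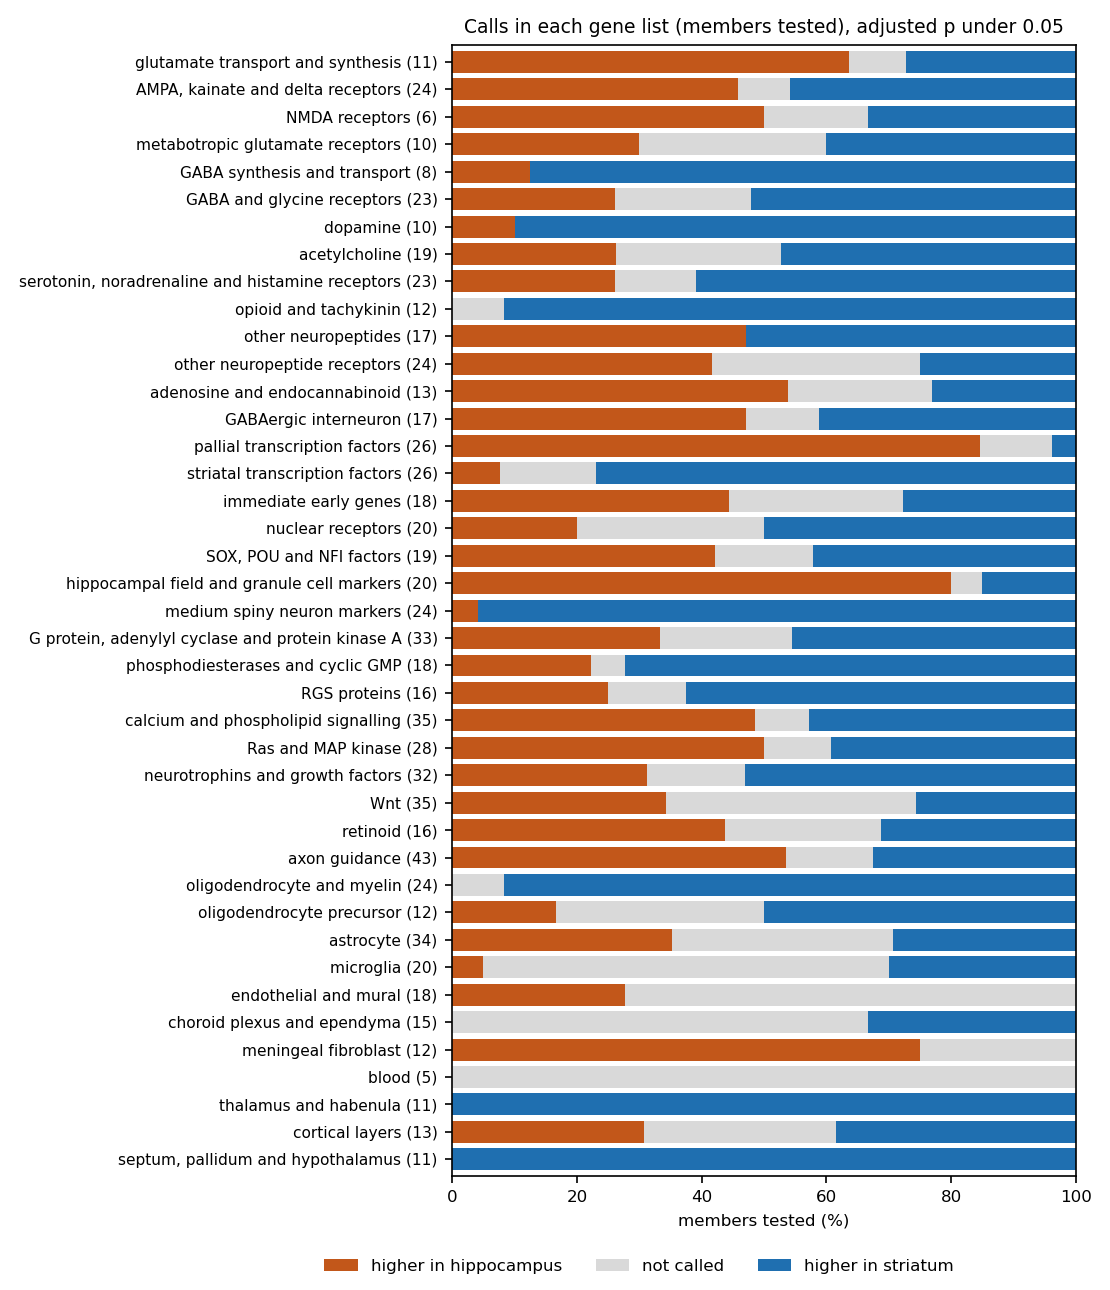
Share of the tested members of each of the 41 gene lists (number tested in brackets) that was called higher in hippocampus, called higher in striatum or not called. Medium spiny neuron, opioid and tachykinin, dopamine and myelin genes lie mostly on the striatal side, pallial transcription factors and hippocampal markers on the hippocampal side, and microglial, vascular and blood genes are mostly not called.

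Transcription factors of the pallium, the dorsal telencephalon that forms cortex and hippocampus, were higher in hippocampus in 22 of 26 tested genes and higher in striatum in 1, with a median difference of 1.45. Neurod6 had a median of 4829.6 (4537 to 5113) normalized counts in hippocampus and 68.5 (8.10 to 522) in striatum. Neurod2 was at 4312 (4086 to 4571) against 159 (5.42 to 439). The hippocampal values of both genes lay close together, while the striatal values spread over more than 10-fold and were highest in replicate 5. With striatum replicates 2, 3 and 6 alone, which have little Slc17a7, the difference was 7.96 for Neurod6 and 7.50 for Neurod2, and with 1, 4 and 5 alone it was 4.27 and 3.67. In wild-type prefrontal cortex Neurod6 stood at 2554 (2277 to 2999), between the regions compared here.

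Bhlhe22, a repressor of the same helix-loop-helix family, differed by 4.08, SE 0.20, at 2359.9 (2277 to 2677) in hippocampus and 135 (97.4 to 231) in striatum. Neurod1 (3.70, SE 0.19), which acts in granule cell differentiation, the zinc finger gene Fezf2 (3.52, SE 0.34) and the homeobox gene Emx1 (3.28, SE 0.28) followed. The nuclear receptor gene Nr4a2 (2.58, SE 0.36) and the zinc finger repressor Zbtb18 (2.24, SE 0.13) were also at least 4-fold higher, as was Prox1 (2.16, SE 0.13), the granule cell homeobox gene. Prox1 stood at 4094 (3442 to 4261) in hippocampus, 909.8 (688 to 1137) in striatum and 400.4 (312 to 434) in prefrontal cortex. Zbtb20, a zinc finger gene of hippocampal pyramidal neurons and astrocytes, was at 16985 (15520.3 to 18232), 7648 (5718 to 9179) and 3713 (2684 to 4249) in the same order, so its hippocampal libraries were above those of both other regions. Tbr1, a factor of neocortical projection neurons, was higher in hippocampus than in striatum by 1.50, and striatum replicate 5 had its highest striatal value. With striatum replicates 2, 3 and 6 alone the difference was 2.51, and with 1, 4 and 5 alone 0.49.

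Mef2c (0.10, SE 0.22), Pax6 (0.079, SE 0.12) and Nr2f2 (0.36, SE 0.20) were not called, and Mef2c stood at 19659 (18707 to 21629.7) in prefrontal cortex where the regions compared had 4326 (3674 to 5541) and 3856 (2948 to 6716). Mef2c was called higher in hippocampus with striatum replicates 2, 3 and 6 alone (0.55) and stood at -0.34 with 1, 4 and 5 alone, with which Nr2f2 was called (0.64). Eomes, a T-box gene of cortical intermediate progenitors, was higher in striatum, at 105 (84.7 to 176) against 27.0 (16.2 to 30.5) (difference -2.19, SE 0.22). It was highest in striatum replicates 2 and 3, the libraries with the most Slc17a6.

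Striatal and ventral telencephalic transcription factors were higher in striatum in 20 of 26 tested genes, 19 of them at least 2-fold, and higher in hippocampus in 2. Isl1, a LIM homeobox gene of D1-class medium spiny neurons and cholinergic neurons, was listed at 0 in 4 of 6 hippocampus libraries, with 1.97 as the highest, and stood at 419 (348 to 460.4) in striatum. Six3, a homeobox gene of D2-class medium spiny neurons, was at 21.6 (12.0 to 24.6) in hippocampus and 1345 (1251 to 1647) in striatum (difference -6.11, SE 0.15). Foxp2 (-4.54, SE 0.094), the forkhead gene linked to speech, was at 57.8 (48.6 to 72.6) and 1371 (1276 to 1482). No library of either region overlapped with the other for these 3 genes, and the striatal values of Isl1 and Six3 varied by less than 1.5-fold.

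Retinoid receptors were part of the striatal set. Rarb and its partner Rxrg, which bind retinoic acid, differed by -3.80, SE 0.082 and -3.74, SE 0.11, with Rarb at 1769 (1653 to 1973) in striatum and 127 (107 to 148) in hippocampus. Rara, the receptor of the same family that is not in the striatal list, went the other way, at 360.2 (308 to 400.2) in hippocampus and 133 (122 to 155) in striatum (difference 1.39, SE 0.09). Of the distal-less genes of GABAergic neurons, Dlx6 (-2.80, SE 0.10), Dlx5 (-2.11, SE 0.11), Dlx2 (-1.60, SE 0.13) and Dlx1 (-1.54, SE 0.17) were all higher in striatum. So were the TALE homeobox genes Meis2 (-2.25, SE 0.067), Meis1 (-2.56, SE 0.19) and Pbx3 (-2.79, SE 0.092). Meis2 reached 6594 (6123 to 7379) in striatum against 1412 (1176 to 1592) in hippocampus.

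Members of a family differed in size or call. Foxp1 differed by -1.08 where Foxp2 differed by -4.54, both in the direction of striatum. Bcl11b (CTIP2), a zinc finger gene of both medium spiny neurons and hippocampal neurons, was not called, at 4046 (3868 to 4413) in hippocampus and 4391 (3614 to 4709) in striatum (difference -0.052, SE 0.065), but was called with striatum replicates 1, 4 and 5 alone (-0.19), and its paralog Bcl11a was higher in hippocampus (1.04, SE 0.079). Ikzf1 and Ikzf2 were not called, at -0.30 and 0.12. Gsx2 had a mean under 10 and was not tested.

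**Figure D4:**
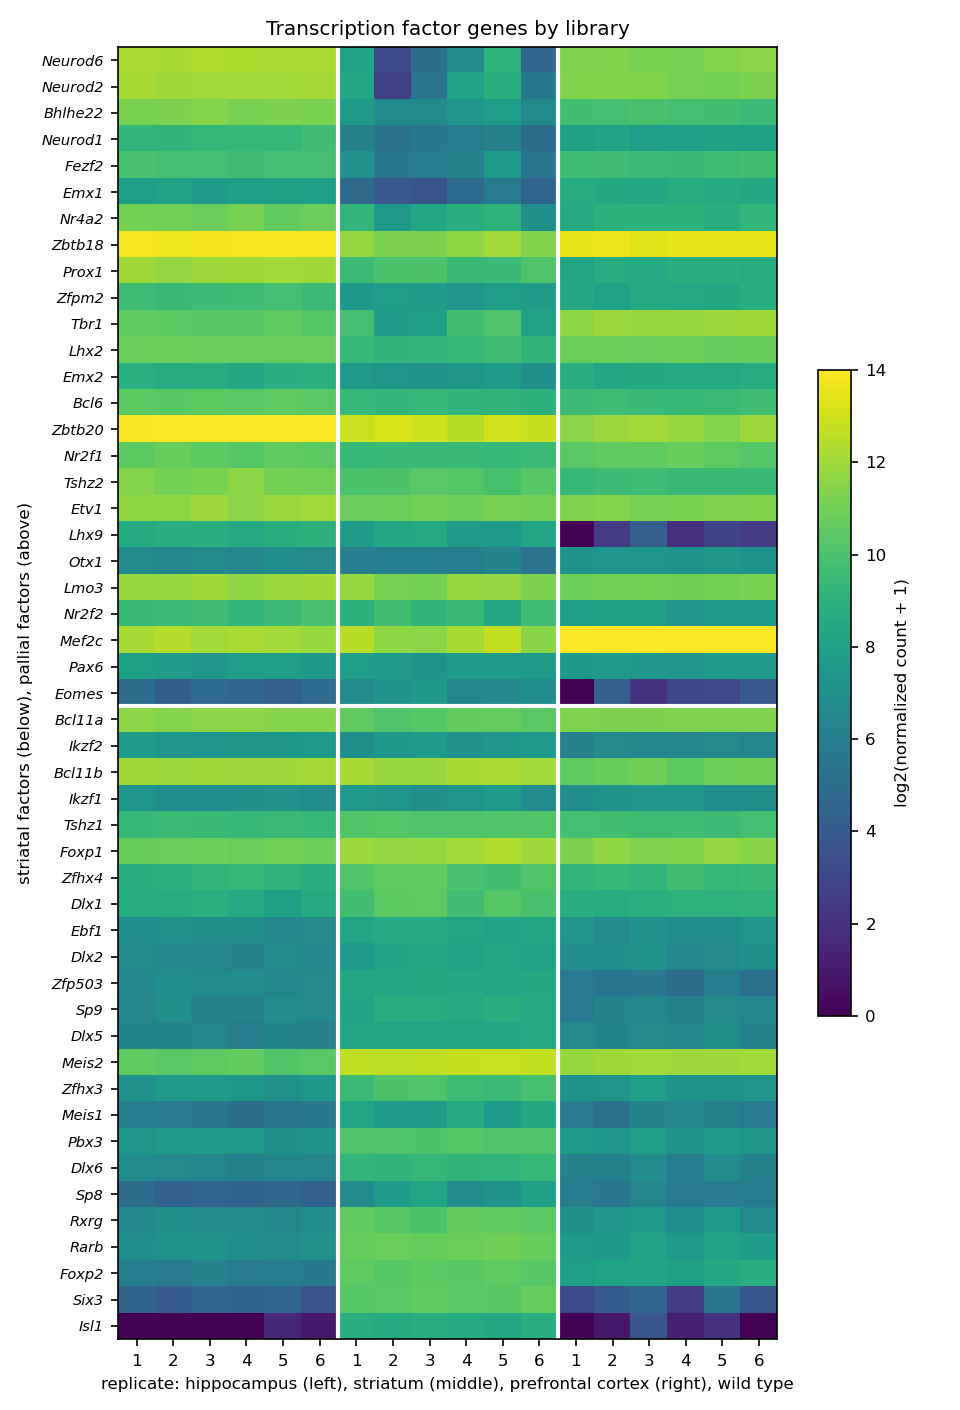
log2(normalized count + 1) of pallial (above the white line) and striatal (below it) transcription factor genes in the 18 wild-type libraries, hippocampus replicates 1 to 6 on the left, striatum in the middle and prefrontal cortex on the right. Rows are ordered within each list by the difference between hippocampus and striatum. The striatal factors at the bottom are bright in the middle block, and Neurod6 and Neurod2 are uneven among the striatum libraries.

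The immediate promoters of genes chosen from these lists differed in base composition. The windows printed here are the 250 bases before the RefSeq start, on GRCm38.p6. They belong to the called gene with the largest difference, of those kept, among the pallial factors, striatal factors, hippocampal markers and medium spiny neuron markers. Kept were genes with an entry in the promoter table, without those of a chromosome that was left out. Capitals mark the motifs searched on both strands, which were TGACGTCA (the cyclic AMP response element), CAGATG (an E-box), GGGCGG (the GC box) and TATAAA. The windows of Neurod6 (chr6:55681264-55681513, minus strand, 46.0% G or C), Isl1 (chr13:116309689-116309938, minus strand, 71.2%) and Lct (chr1:128328319-128328568, minus strand, 42.8%) hold none of these letters, and that of Drd2 (chr9:49340153-49340402, plus strand, 68.8%) holds 2 GC boxes. In the GENCODE M21 annotation of this build, whose starts can differ from those of RefSeq, the genes span chr6:55677822-55681263 (Neurod6), chr13:116298281-116309689 (Isl1), chr1:128284756-128328318 (Lct) and chr9:49340627-49408177 (Drd2).
Neurod6: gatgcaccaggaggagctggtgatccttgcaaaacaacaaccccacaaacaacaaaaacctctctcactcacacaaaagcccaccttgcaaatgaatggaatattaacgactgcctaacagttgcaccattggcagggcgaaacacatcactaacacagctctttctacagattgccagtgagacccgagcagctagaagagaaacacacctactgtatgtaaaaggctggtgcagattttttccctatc
Isl1: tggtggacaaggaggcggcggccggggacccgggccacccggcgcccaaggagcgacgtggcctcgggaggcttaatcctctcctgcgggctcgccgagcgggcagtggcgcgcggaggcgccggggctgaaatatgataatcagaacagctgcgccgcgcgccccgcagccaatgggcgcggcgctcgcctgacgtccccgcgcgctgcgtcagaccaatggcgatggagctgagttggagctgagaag
Lct: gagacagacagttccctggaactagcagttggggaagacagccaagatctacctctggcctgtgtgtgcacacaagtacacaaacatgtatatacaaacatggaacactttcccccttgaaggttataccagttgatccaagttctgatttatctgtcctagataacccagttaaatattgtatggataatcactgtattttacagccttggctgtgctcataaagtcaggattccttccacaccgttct
Drd2: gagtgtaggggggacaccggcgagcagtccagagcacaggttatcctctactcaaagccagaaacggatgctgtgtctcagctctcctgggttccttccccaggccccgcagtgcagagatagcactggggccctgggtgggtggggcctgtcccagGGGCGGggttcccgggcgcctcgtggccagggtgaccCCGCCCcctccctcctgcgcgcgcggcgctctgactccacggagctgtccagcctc

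Promoter windows were matched by symbol for 12275 of 16995 distinct tested symbols, with 15700 windows in all since a gene can have several starts. GGGCGG was found in 48.5% of the windows of genes at least 2-fold higher in hippocampus, in 43.0% for striatum and in 54.3% of all windows. The shares for CAGATG were 14.6%, 13.3% and 10.7%, and those for TATAAA 8.98%, 8.59% and 6.80%. These are descriptions of letters, without a test.

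Other transcription factor families were divided between the regions. Among SOX, POU and NFI genes 8 were higher in hippocampus and 8 in striatum of 19 tested. Nuclear factor I genes stood on the hippocampal side, Nfib at 5605 (5015 to 5932) against 1420.4 (1168 to 1788) (1.95, SE 0.08) and Nfix at 7764 (7589.9 to 7802) against 2292 (1955 to 2714) (1.77, SE 0.059). On the striatal side were Pou3f4 (-2.25, SE 0.14) and Sox1 (-1.46, SE 0.075). Pou3f4 was at 359 (312 to 420.4) in striatum and 67.5 (61.4 to 109.6) in hippocampus, without overlap. Sox4 and Sox9 were not called.

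Of 20 other nuclear receptor genes, 4 were higher in hippocampus, 10 in striatum and 6 not called. The shares over all genes were 23.1% for hippocampus and 24.2% for striatum. The mineralocorticoid receptor gene Nr3c2, whose product binds corticosterone with high affinity, was at 4325 (4015 to 4919) in hippocampus, 1141 (903 to 1188) in striatum and 883 (824 to 933) in prefrontal cortex (difference 2.01, SE 0.067). The glucocorticoid receptor gene Nr3c1 differed by -0.16, SE 0.049, in the other direction, and was not called with striatum replicates 2, 3 and 6 alone (-0.12). Esr1, the estrogen receptor alpha, was higher in striatum (-1.43, SE 0.13), at 194 (172 to 241) against 73.2 (58.8 to 94.5), as was Esrrg (-0.97, SE 0.10). Esr1 is also expressed in hypothalamus and septum, whose markers were in the striatum libraries.

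Activity-induced genes showed no common direction: 8 of 18 were higher in hippocampus, 5 in striatum and 5 were not called. Nr4a3, an orphan nuclear receptor, was at 2625 (2373 to 2789.9) in hippocampus and 546 (392 to 750.2) in striatum (2.23, SE 0.13). Jun (1.61, SE 0.057) and Fosl2 (1.14, SE 0.093), both of the AP-1 family, were higher in hippocampus as well, whereas Egr2 (-1.65, SE 0.26) and Egr1 (-0.57, SE 0.09) were higher in striatum. Fos itself differed by -0.31, SE 0.12, a call that was lost without any of hippocampus replicates 4, 5 and 6 or striatum replicates 3 and 6, where it lay between -0.30 and -0.23, and also with striatum replicates 1, 4 and 5 alone, at -0.17. Fosb, Jund and Nr4a1 were not called.

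Marker genes of the principal neurons were mostly higher in the region they mark. Of 24 medium spiny neuron markers 23 were higher in striatum, all at least 2-fold, with a median difference of -4.13. Gpr6, an orphan receptor gene, was at 798 (739 to 919) in striatum and 19.0 (9.81 to 30.2) in hippocampus (-5.31, SE 0.20). Scn4b, a sodium channel beta subunit, was at 17838 (13904 to 20049) against 620.1 (583 to 691) (-4.76, SE 0.082). Eya1, a transcription cofactor on the same list, was higher in hippocampus instead (1.65, SE 0.10), at 584 (486 to 628) against 188 (146 to 214). Since bulk tissue was sequenced, more cells of a type and more RNA per cell cannot be told apart.

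Among 20 markers of hippocampal fields and granule cells, 16 were higher in hippocampus and 3 in striatum. C1ql2, a secreted synaptic protein of mossy fibres, was at 1384 (1355 to 1597) in hippocampus and 157 (85.1 to 185) in striatum (3.36, SE 0.16), and Fibcd1, a marker of CA1, at 3270.3 (2845 to 3992) and 369.9 (317 to 419) (3.15, SE 0.08). The neuronal pentraxin Nptx1 reached 17551 (15959 to 19324) and 2144 (1458 to 3894). Tdo2 (4.64, SE 0.29), a tryptophan-degrading enzyme, and Iyd (4.77, SE 0.62), a deiodinase of iodotyrosine, had low levels and large differences. The exceptions were Calb1 (-0.53, SE 0.042), a calcium buffer of granule cells and of medium spiny neurons, the wolframin gene Wfs1 (-0.50, SE 0.061) and Dcx (-0.35, SE 0.067), the doublecortin gene of young neurons.

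Of 11 genes of glutamate transport and synthesis 7 were higher in hippocampus and 3 in striatum, and with all libraries scaled to equal totals 4 were higher in hippocampus. The vesicular transporters mark types of glutamatergic neurons. Slc17a7 stood at 31032 (30211 to 32408) in hippocampus and 3089 (410.1 to 8530.4) in striatum (difference 3.95, SE 0.78), and without striatum replicates 1, 4 and 5 the difference was 5.66 and with these alone 2.25. Slc17a6 (-2.31, SE 0.22) and Slc17a8 (-1.25, SE 0.10), the transporter VGLUT3 of cholinergic and other interneurons, were higher in striatum. Among uptake carriers, Slc1a1 (0.57, SE 0.038), the neuronal carrier, and Slc1a2 (0.47, SE 0.053), the main astrocyte carrier, were higher in hippocampus. Slc38a1, a glutamine carrier, was higher in striatum (-0.49, SE 0.034).

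Ionotropic glutamate receptor genes were divided in a subunit-dependent way. Of 24 genes for AMPA, kainate and delta receptors and their auxiliary subunits, 11 were higher in hippocampus and 11 in striatum, with a median difference of 0.01. Gria1 (GluA1) was at 24789 (22733 to 26657) in hippocampus and 12139 (11159 to 13781) in striatum (1.02, SE 0.051), and Gria2 (0.53, SE 0.049) and Gria3 (0.44, SE 0.061) were higher in hippocampus by less. Gria4 lay on the striatal side (-0.56, SE 0.051). Among the auxiliary proteins that bind AMPA receptors, Shisa6 (2.85, SE 0.11), Cnih3 (1.48, SE 0.13), Cacng8 (1.33, SE 0.056) and Cnih2 (1.12, SE 0.036) were higher in hippocampus, and Cacng4 (-2.13, SE 0.056) and Cacng5 (-1.71, SE 0.11) in striatum. Shisa6 stood at 5415 (4518 to 6232) in hippocampus, 713 (606 to 1009) in striatum and 348 (272 to 417) in prefrontal cortex.

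Kainate receptor genes showed the same division. Grik4, the high-affinity subunit KA1 of CA3 and granule cells, was at 1444 (1313 to 1787) in hippocampus and 409.5 (390.3 to 488) in striatum (1.82, SE 0.077). Grik3 (-0.82, SE 0.047), Grik2 (-0.63, SE 0.033) and Grik1 (-0.45, SE 0.085) were higher in striatum, and Grik5 (0.24, SE 0.064) in hippocampus, though Grik5 was not called with striatum replicates 1, 4 and 5 alone (0.11).

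NMDA receptor subunits had 3 genes higher in hippocampus and 2 in striatum of 6 tested. Grin2a (GluN2A) was at 10395 (9142 to 11349.6) in hippocampus and 2386 (1798 to 3247) in striatum (2.10, SE 0.12). Grin2b (GluN2B) differed by 0.89, SE 0.06 and the obligatory subunit Grin1 by 0.31, SE 0.041. Grin2d (-1.02, SE 0.092) and Grin3a (-0.53, SE 0.069) were higher in striatum, and Grin2d was lowest in striatum replicate 5 and highest in replicate 3. Grin2c was not called and Grin3b had a mean under 10.

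Metabotropic receptors and their Homer scaffolds had 3 higher in hippocampus, 4 in striatum and 3 not called. Grm2, a presynaptic receptor of granule cells, was at 1429 (1239 to 1580.3) in hippocampus and 334 (264 to 414) in striatum (2.09, SE 0.10). Grm4, another presynaptic receptor, was at 1438 (1280.0 to 1521) in striatum and 412 (308 to 474) in hippocampus (-1.85, SE 0.11). Homer3 (2.78, SE 0.10) and Homer2 (1.20, SE 0.063) were higher in hippocampus, and Homer1 (-0.15, SE 0.10) was not called. The postsynaptic receptor gene Grm5 was not called, with a 95% interval of -0.11 to 0.072 for its difference.

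GABA synthesis and transport genes were higher in striatum in 7 of 8. Gad2, which encodes the glutamate decarboxylase GAD65, was at 16843 (16057 to 18177) in striatum and 4096 (3697 to 4262) in hippocampus (-2.07, SE 0.042), and Gad1, for GAD67, at 14033 (13530.1 to 15278) and 7339.8 (6819 to 7630.2) (-0.96, SE 0.036). Slc32a1, the vesicular GABA transporter, differed by -1.98, SE 0.063 and the GABA transaminase Abat by -1.17, SE 0.036. Slc6a11, the GABA carrier GAT-3 of astrocytes, was also higher in striatum (-1.23, SE 0.12), and its striatal values were lowest in replicates 1 and 5. Slc6a13, a GABA carrier of meninges, was higher in hippocampus (0.71, SE 0.21), as the meningeal genes described below were, and was not called with striatum replicates 1, 4 and 5 alone (0.59).

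GABA-A receptor subunits did not all share the direction of GABA synthesis. Of 23 genes for GABA and glycine receptors and their anchors, 6 were higher in hippocampus, 12 in striatum and 5 not called. Gabra5, the subunit of extrasynaptic receptors in hippocampus, was at 4749 (4571 to 5116) in hippocampus and 1026 (889.6 to 1149) in striatum (2.24, SE 0.058). Gabra2 (0.44, SE 0.06) and Gabrb1 (0.34, SE 0.051) were higher in hippocampus by smaller amounts. Gabrq, the theta subunit, was at 766 (579 to 1072) in striatum and 22.7 (14.3 to 31.9) in hippocampus (-5.16, SE 0.19), and Gabrd (-1.63, SE 0.08), Gabrg1 (-1.56, SE 0.08) and Gabrg3 (-1.26, SE 0.053) were higher in striatum. Gabrq is also expressed in hypothalamus.

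The metabotropic GABA receptor gene Gabbr2 was higher in hippocampus (0.99, SE 0.046), at 9042 (8529.8 to 9359) against 4445 (4248 to 5249.9), while its partner Gabbr1 was slightly higher in striatum (-0.15, SE 0.03). Their associated protein genes Kctd12 (0.67, SE 0.049) and Kctd8 (-1.47, SE 0.091) lay on opposite sides. The glycine receptor subunits Glra3 (-2.20, SE 0.19) and Glra2 (-1.91, SE 0.089) were higher in striatum, whereas Glrb, the shared beta subunit, was not called.

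Dopamine genes were higher in striatum in 9 of 10 tested. Drd2 had a median of 2774 (2383 to 3045) in striatum and 63.2 (38.4 to 75.3) in hippocampus (-5.52, SE 0.14), and Drd1 one of 3475 (2921 to 4011) and 126 (98.4 to 147) (-4.82, SE 0.10). Drd3, the receptor of ventral striatum, was at 58.9 (39.0 to 72.9) and 2.09 (0 to 3.92). Drd5, the D1-like receptor of hippocampus, ran the other way, at 329 (267 to 377) in hippocampus and 91.4 (75.4 to 115) in striatum (1.77, SE 0.12). The libraries of the regions did not overlap in any of these 4 genes. Th, tyrosine hydroxylase, was at 185 (165 to 214) in striatum and 14.2 (6.45 to 20.8) in hippocampus, and Slc18a2, the vesicular monoamine transporter, and Ddc, the decarboxylase, differed by -1.92, SE 0.15 and -1.14, SE 0.11. The striatum libraries also held hypothalamic RNA, and its part in the values of Th, Slc18a2 and Ddc was not tested. The breakdown enzymes Maoa (-0.46, SE 0.059) and Maob (-0.46, SE 0.084) were higher in striatum by small amounts.

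Genes of cholinergic neurons were low in hippocampus. Chat, choline acetyltransferase, was at 429 (334 to 497) in striatum and at most 1.61 in hippocampus, and Slc5a7, the choline transporter, at 1033 (762 to 1255) and 28.8 (11.3 to 44.0) (-5.30, SE 0.30). Slc18a3, the vesicular acetylcholine transporter, differed by -6.68, SE 0.32 and acetylcholinesterase, Ache, by -1.25, SE 0.086. Lhx8 and Nkx2-1, factors of cholinergic and pallidal neurons, and the neurotrophin receptor gene Ngfr were higher in striatum too, with differences of -7.79, -4.56 and -3.23. Septum and pallidum hold cholinergic neurons as well, and their marker Gbx1 was at 140.0 (122 to 182) in the striatum libraries.

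The muscarinic receptor genes named here, Chrm5 not among them, divided by type. Chrm1 (1.21, SE 0.08) and Chrm3 (1.15, SE 0.075), which couple to Gq, were higher in hippocampus, and Chrm4 (-1.44, SE 0.11) and Chrm2 (-1.96, SE 0.077), which couple to Gi, in striatum. Chrm1 stood at 5155 (4959 to 5452) in hippocampus and 2193 (1891 to 2782) in striatum, and Chrm4 at 210.5 (181 to 265) and 609 (451 to 668). Of the nicotinic subunits, Chrna5 (3.14, SE 0.35) and Chrna7 (1.03, SE 0.077) were higher in hippocampus and Chrna3 (-2.30, SE 0.27), Chrna2 (-2.28, SE 0.45) and Chrnb4 (-1.37, SE 0.33) in striatum at low levels. Chrnb4 was not called with striatum replicates 1, 4 and 5 alone (-1.16). Chrnb2 and Chrna4, the subunits of the commonest brain receptor, were not called.

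Receptors for serotonin, noradrenaline and histamine gave 6 genes higher in hippocampus and 14 higher in striatum of 23. Adra1d, an alpha-1 adrenergic receptor, was at 890.3 (826 to 968) in hippocampus and 40.5 (33.8 to 77.3) in striatum (4.27, SE 0.16). Its relative Adra1b was higher in striatum (-1.54, SE 0.18), as was Adra2b (-4.82, SE 0.35), and the latter stood at 64.8 (55.0 to 108) against 2.23 (0 to 2.89). Among serotonin receptors, Htr1a (1.27, SE 0.062), Htr3a (2.13, SE 0.15), Htr4 (1.31, SE 0.18) and Htr5b (2.39, SE 0.14) were higher in hippocampus, and Htr1b (-2.58, SE 0.079), Htr1d (-5.30, SE 0.46), Htr2c (-1.20, SE 0.072), Htr7 (-0.94, SE 0.11) and Htr2a (-0.78, SE 0.15) in striatum. Htr1b was at 1525 (1385 to 1648) in striatum and 248 (223 to 311) in hippocampus, and Htr1d at 194 (152 to 252) and 4.39 (0.72 to 17.0). The 3 receptors Htr1a, Htr1b and Htr1d all couple to Gi but did not share a direction. Of the histamine receptors, Hrh3 (-1.37, SE 0.064) and Hrh1 (-1.15, SE 0.15) were higher in striatum.

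**Figure D5:**
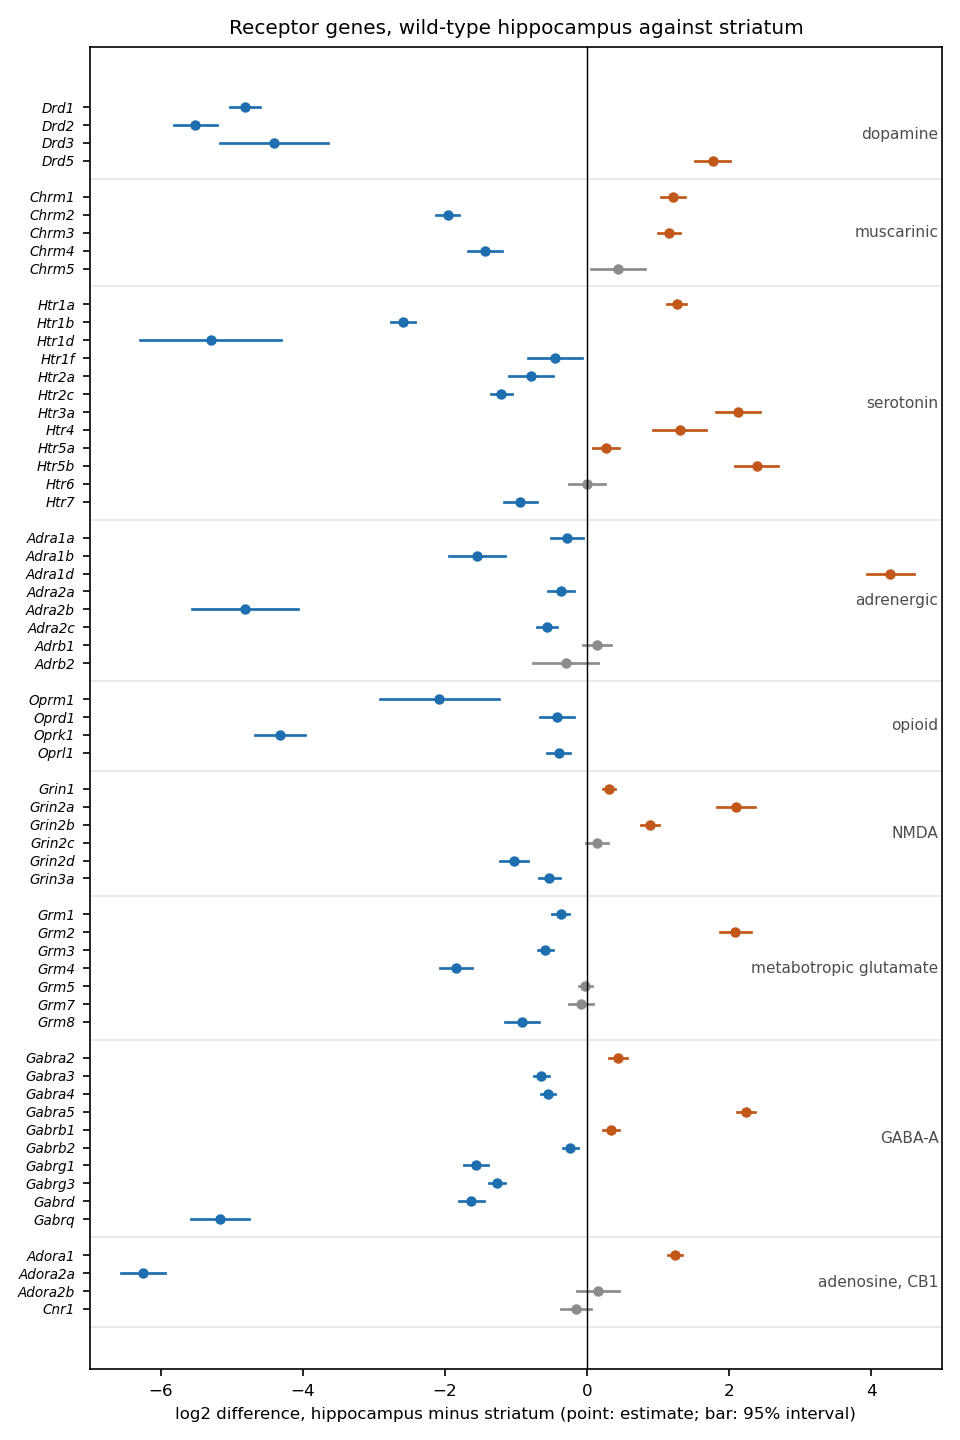
Log2 difference (hippocampus minus striatum) of the dopamine, muscarinic, serotonin, adrenergic, opioid, NMDA, metabotropic glutamate, GABA-A, adenosine and CB1 receptor genes plotted, with its 95% interval from limma, 6 libraries in each region. Orange marks genes called higher in hippocampus, blue higher in striatum and grey not called. Of the genes plotted, Adora2a, Drd2, Htr1d, Gabrq, Drd1 and Adra2b lie farthest to the striatal side, and Adra1d, Htr5b, Gabra5, Htr3a, Grin2a and Grm2 farthest to the hippocampal side.

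Opioid and tachykinin genes were higher in striatum in 11 of 12, and 0 were higher in hippocampus. Penk differed by -5.10, SE 0.054, and Tac1, the precursor of substance P, was at 3019 (2482 to 3438) in striatum and 190.3 (184 to 200.1) in hippocampus (-3.96, SE 0.068). Pdyn, the dynorphin precursor, was at 1944 (1599 to 2250.3) and 278 (240.1 to 351) (-2.75, SE 0.10). Their receptors lay on the same side: the kappa receptor gene Oprk1 was at 899 (841 to 932) in striatum and lower in hippocampus (-4.32, SE 0.17), the substance P receptor Tacr1 at 625 (511 to 691) and 41.7 (30.3 to 49.8) (-3.89, SE 0.12), and the mu receptor Oprm1 differed by -2.08, SE 0.39. Oprd1 and Oprl1, the delta and nociceptin receptors, were higher in striatum, with differences of -0.42 and -0.39, and Oprd1 was not called with striatum replicates 2, 3 and 6 alone (-0.19). Pomc was not called.

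The other peptide genes were split, 8 higher in hippocampus and 9 in striatum of 17. Cck, cholecystokinin, was at 4855 (4535 to 4979) in hippocampus and 648 (465 to 1386) in striatum (2.77, SE 0.25), and Grp (3.57, SE 0.17), Cort (3.74, SE 0.50), Vip (1.59, SE 0.36) and Chgb (1.33, SE 0.073) were higher in hippocampus. Striatum had more Trh (-5.02, SE 0.85), Gal (-4.55, SE 0.23), Nts (-3.11, SE 0.15) and Cartpt (-3.08, SE 0.13). Trh, Gal and Cartpt are also peptides of hypothalamus, and Trh was lowest in striatum replicate 5, as Oxt was. Sst, the somatostatin gene, was higher in hippocampus by a small amount, at 3813 (3463 to 3967) against 2735 (2484 to 3018) (0.46, SE 0.047), and Scg2, secretogranin II, was higher in striatum, at 10951 (10322 to 13031) against 4751 (4379.6 to 5277) (-1.22, SE 0.062).

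Sst and Scg2 share a full cyclic AMP response element in the promoter and lay on opposite sides, which is why their windows are printed; they were chosen after their values were seen. The element TGACGTCA, in capitals, starts 48 bases before the start of Sst (chr16:23890845-23891094, minus strand) and 68 bases before that of Scg2 (chr1:79440027-79440276, minus strand). It occurred in 0.59% of the windows of genes at least 2-fold higher in hippocampus, in 1.57% of those at least 2-fold higher in striatum and in 2.38% of all windows of tested genes.
Sst: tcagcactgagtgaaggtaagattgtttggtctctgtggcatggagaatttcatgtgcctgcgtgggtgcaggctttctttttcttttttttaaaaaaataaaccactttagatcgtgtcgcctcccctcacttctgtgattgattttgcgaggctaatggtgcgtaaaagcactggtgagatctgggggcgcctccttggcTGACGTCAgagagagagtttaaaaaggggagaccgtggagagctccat
Scg2: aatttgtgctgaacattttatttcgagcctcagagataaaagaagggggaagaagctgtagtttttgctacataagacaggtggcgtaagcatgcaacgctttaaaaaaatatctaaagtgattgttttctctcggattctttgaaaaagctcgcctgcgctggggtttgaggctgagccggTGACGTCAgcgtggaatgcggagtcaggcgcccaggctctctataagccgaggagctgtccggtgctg

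Peptide receptors were split as well, 10 against 6 in favour of hippocampus among 24, with 8 not called. The somatostatin receptors Sstr4 (2.47, SE 0.18) and Sstr3 (2.06, SE 0.21) were higher in hippocampus while Sstr2 was not called. The neuropeptide Y receptors Npy2r (1.73, SE 0.10) and Npy1r (1.02, SE 0.082) were higher in hippocampus, and Npy2r stood at 1412 (1235 to 1566) there, 422 (333 to 506) in striatum and 65.1 (52.8 to 79.5) in prefrontal cortex. The vasopressin receptor Avpr1a was at 58.1 (41.2 to 88.7) in striatum and 4.44 (2.13 to 7.37) in hippocampus (-3.56, SE 0.31).

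Adenosine and endocannabinoid genes showed a pair of opposed receptors. Adora2a, which raises cyclic AMP, was at 3399 (2641 to 3653) in striatum and 39.9 (29.3 to 63.4) in hippocampus (-6.25, SE 0.15), and Adora1, which lowers it, was at 9391 (8882 to 9661) in hippocampus and 4008 (3607 to 4431) in striatum (1.24, SE 0.046). Nt5e, the enzyme that forms adenosine outside cells, was higher in striatum (-1.78, SE 0.13). The endocannabinoid enzymes Faah (2.19, SE 0.081), Napepld (1.60, SE 0.061), Dagla (1.19, SE 0.053) and Mgll (0.56, SE 0.07) were all higher in hippocampus, with Faah at 3867 (3618 to 4006) against 878 (697 to 975). The receptor gene Cnr1 was not called, with a 95% interval of -0.37 to 0.061.

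Interneuron markers were divided as well, 8 higher in hippocampus and 7 in striatum of 17. Vip and Npas1 (1.12, SE 0.10) were higher in hippocampus, and Calb2, calretinin, was higher in striatum (-1.75, SE 0.16). Calb2 is also a gene of midline thalamus, and its striatal values ran from 1606 in replicate 5 to 3393 in replicate 3, which are also the ends of the range of Oxt. Pvalb, parvalbumin, was not called (0.11, SE 0.17). Lhx6, a factor of interneurons from the medial ganglionic eminence, was higher in striatum (-0.91, SE 0.075), and Nos1, nitric oxide synthase, in hippocampus (0.43, SE 0.069).

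Signalling downstream of these receptors differed in its isoforms. Of 33 genes for G proteins, adenylyl cyclases and protein kinase A, 11 were higher in hippocampus and 15 in striatum, 10 of the latter at least 2-fold. Ppp1r1b, which encodes the phosphatase inhibitor DARPP-32, was at 19692 (16779 to 21135) in striatum and 1172 (987 to 1366) in hippocampus (-4.03, SE 0.084). Adenylyl cyclase 5, Adcy5, was at 19149 (16394 to 19863) in striatum and 3269 (3049 to 3579) in hippocampus (-2.49, SE 0.054), and adenylyl cyclase 1, Adcy1, at 7627 (5467 to 10321) and 34558 (32819 to 36686) (2.23, SE 0.12). The G protein subunits Gnal (-1.98, SE 0.049) and Gng7 (-1.92, SE 0.055), which couple dopamine and adenosine receptors to Adcy5, were higher in striatum, while Gnas, the general stimulatory subunit, was not called. Prkar2b (-1.69, SE 0.054) and Prkacb (-0.78, SE 0.033), subunits of protein kinase A, and Arpp21 (-2.45, SE 0.078), a substrate, were higher in striatum, and Prkaca was not called.

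Phosphodiesterases, which break down cyclic nucleotides, and cyclic GMP genes were mostly striatal, 13 against 4 of 18. Pde10a was at 20508 (16284 to 22146) in striatum and 2559 (2071 to 3006) in hippocampus (-2.97, SE 0.10), and Pde1b at 16839.5 (14566 to 17477) and 2573 (2458 to 2844) (-2.65, SE 0.052). Pde7b (-2.74, SE 0.061), Pde1c (-1.84, SE 0.075) and the guanylyl cyclase subunit Gucy1a1 (-1.75, SE 0.058) were higher in striatum, and Pde1a (1.37, SE 0.11) in hippocampus. The family members Pde1a and Pde1b thus lay on opposite sides with no overlap of libraries.

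RGS genes, whose products switch off G proteins, were higher in striatum in 10 of 16 and in hippocampus in 4. Rgs9, which acts on D2 receptor signalling, was at 7277 (6045 to 7524) in striatum and 364 (352 to 396) in hippocampus (-4.23, SE 0.06). Rgs2 (-1.73, SE 0.057), Rgs20 (-1.47, SE 0.11), Rgs4 (-1.31, SE 0.095) and Rgs16 (-1.29, SE 0.19) were higher in striatum by smaller amounts. Rgs14, a gene of CA2 pyramidal neurons, was higher in hippocampus (0.75, SE 0.067).

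Calcium and phospholipid signalling was split about evenly, 17 against 15 of 35, with a median difference of -0.0085. Camk2a, the alpha subunit of calmodulin kinase II, was at 103943 (98837 to 109557) in hippocampus and 33563 (27085 to 42993) in striatum (1.63, SE 0.10), and Camk2b (0.65, SE 0.042) followed it while Camk2d (-1.11, SE 0.13) was higher in striatum. Protein kinase C genes divided likewise: Prkca (1.36, SE 0.074) and Prkce (1.19, SE 0.069) were higher in hippocampus and Prkch (-3.02, SE 0.12) and Prkcd (-0.98, SE 0.15) in striatum, with Prkcb not called. With striatum replicates 2, 3 and 6 alone Prkcb was called higher in hippocampus (0.086), and with 1, 4 and 5 alone higher in striatum (-0.17). Prkch stood at 875 (704 to 929) in striatum and 105 (81.1 to 131) in hippocampus. Prkcd also belongs to the list of thalamus and habenula markers given above. Its difference was -1.31 with striatum replicates 2, 3 and 6 alone and -0.65 with 1, 4 and 5 alone. The part of thalamic RNA in it was not tested. The calmodulin-binding protein genes Nrgn (1.28, SE 0.18) and Pcp4 (-2.28, SE 0.07) lay on opposite sides. Ryr2 (1.46, SE 0.056) and Itpka (1.31, SE 0.087) were higher in hippocampus, and Plcb4 (-1.71, SE 0.075), which is also a gene of thalamus, and Itpr1 (-0.48, SE 0.061) in striatum.

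Among Ras and MAP kinase genes 14 were higher in hippocampus and 11 in striatum of 28. Rasd2 (Rhes), a small GTPase, was at 8265 (7020.1 to 9608) in striatum and 1291 (1118 to 1328) in hippocampus (-2.69, SE 0.071), Rasgrp2, an activator of Rap1, differed by -2.59, SE 0.094 and Ptpn5, the striatal-enriched phosphatase STEP, by -1.89, SE 0.042. Hippocampus had more of the MAP kinase phosphatases Dusp5 (1.59, SE 0.10) and Dusp4 (1.06, SE 0.082) and of Rasal1 (1.22, SE 0.077). The kinase gene Map2k1 (0.23, SE 0.044) was slightly higher in hippocampus, and Mapk3 was not called.

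Neurotrophins and other growth factors were found on both sides. Bdnf was at 1264 (1191 to 1349.7) in hippocampus and 238 (166 to 424) in striatum (2.30, SE 0.21), and Ntf3 (2.78, SE 0.31) was higher in hippocampus as well. Of the receptors, Ntrk2 was slightly higher in striatum (-0.31, SE 0.036) and Ntrk3 was higher in hippocampus (0.41, SE 0.034). Gdnf, at 87.1 (79.9 to 94.7) in striatum and 1.45 (0 to 6.77) in hippocampus, and the receptor genes Ret (-2.46, SE 0.16) and Gfra1 (-0.45, SE 0.066) lay on the striatal side. Tgfb2 was higher in hippocampus (1.60, SE 0.13) and Tgfa and Nrg1 in striatum (-1.03 and -1.55). In all, 10 of 32 genes were higher in hippocampus and 17 in striatum.

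The Wnt list had 12 higher in hippocampus, 9 in striatum and 14 of 35 not called, beside 23.1% and 24.2% of all genes higher in each region. The secreted modulators Rspo2 (3.53, SE 0.34), Frzb (2.54, SE 0.29) and Dkk3 (2.20, SE 0.14) and the ligand Wnt7b (1.47, SE 0.084) were higher in hippocampus. Rspo2 stood at 462 (379 to 543) in hippocampus and 33.3 (21.9 to 84.8) in striatum, and Dkk3 at 8659 (8084 to 8977) and 1716 (1508 to 2995). Tcf7l2, a transcription factor of the pathway and of thalamic neurons, was at 1058 (592 to 1357) in striatum and 139.7 (115 to 259) in hippocampus (-2.69, SE 0.23). Its lowest striatal value was in replicate 5 and its highest in replicate 3, again as for Oxt. Ctnnb1, Axin2 and Lef1 were not called.

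Of 16 retinoid genes, the receptors included, 7 were higher in hippocampus and 5 in striatum. Cyp26b1, which degrades retinoic acid, was at 354 (286 to 407) in hippocampus and 135 (72.5 to 150.2) in striatum (1.53, SE 0.16), and the synthesis enzymes Aldh1a3 (1.46, SE 0.32) and Aldh1a2 (0.82, SE 0.18) were higher in hippocampus. Aldh1a2 is also a meningeal gene. Crabp1, a binding protein, was higher in striatum (-2.76, SE 0.24), at 83.0 (63.7 to 143) against 12.9 (6.71 to 16.3).

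Axon guidance genes were higher in hippocampus in 23 of 43 and in striatum in 14, with a median of 0.51. Slit1 (2.02, SE 0.084) and Robo3 (1.90, SE 0.35), of the Robo family, Nrp1 (1.80, SE 0.063) and its partner Plxna4 (1.42, SE 0.055), and the Eph receptors Epha7 (1.47, SE 0.071), Epha6 (1.43, SE 0.09) and Epha4 (1.36, SE 0.054) were higher in hippocampus. Slit1 was at 6588 (6291 to 7621) in hippocampus and 1631 (1326 to 1965) in striatum, without overlap. The ligands of neuropilins lay on the striatal side, Sema3f at 513 (371 to 539.8) against 106 (64.1 to 138) (-2.22, SE 0.17) and Sema3a at 555 (494 to 599) against 121 (99.2 to 213) (-2.10, SE 0.15). Epha8 (-1.98, SE 0.14), Efna5 (-1.43, SE 0.11) and netrin 1, Ntn1 (-1.27, SE 0.078), were higher in striatum, and the netrin receptor Dcc was not called.

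Glial genes were called higher in striatum most often in the myelin list. Of 24 oligodendrocyte and myelin genes 22 were higher in striatum and 0 in hippocampus, with a median difference of -0.61 and 1 gene past 2-fold. Mbp, myelin basic protein, was at 102629 (86765 to 106712) in striatum and 69545 (60482 to 81121) in hippocampus (-0.52, SE 0.073), and Mog, a glycoprotein of the myelin surface, at 2683 (2447 to 2929.7) and 1638 (1499 to 1830.0) (-0.69, SE 0.056). All 6 striatum libraries lay above all 6 of hippocampus for both genes. Mag (-0.67, SE 0.065), Cnp (-0.61, SE 0.064) and the factor Myrf (-0.42, SE 0.077) gave differences of like size, and Nkx6-2, a homeobox gene of these cells, the largest (-1.01, SE 0.11). Car2 and Enpp2 were not called, and Enpp2 is also a gene of choroid plexus.

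Oligodendrocyte precursor genes were less uniform, 6 higher in striatum, 2 in hippocampus and 4 of 12 not called. Pdgfra, the receptor that defines these cells, was not called, at 1995 (1751 to 2167) in hippocampus and 1983 (1778 to 2091) in striatum (0.0096, SE 0.052). Genes of differentiating cells, Enpp6 (-0.55, SE 0.12) and Bcas1 (-0.45, SE 0.072), were higher in striatum, as was Lhfpl3 (-1.35, SE 0.06). Tnr, the matrix protein tenascin-R, was higher in hippocampus (0.41, SE 0.065).

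Astrocyte genes had no common direction: 12 of 34 were higher in hippocampus, 10 in striatum and 12 not called. Over all genes the shares were 23.1% for hippocampus and 24.2% for striatum. Gfap, the intermediate filament of astrocytes, was at 8813 (8036 to 9319) in hippocampus and 3334 (3093 to 3551) in striatum (1.39, SE 0.044), and Thbs4 (1.17, SE 0.14) and Crym (0.86, SE 0.10) were higher in hippocampus too. Crym, mu-crystallin, stood at 3924 (3265 to 4647) in hippocampus, 2171 (1757 to 2717) in striatum and 1203 (986 to 1395) in prefrontal cortex. In striatum Agt, angiotensinogen, was at 1748 (963 to 2143) against 609 (573 to 802) (-1.32, SE 0.18), and Id4 (-1.08, SE 0.048) and Chrdl1 (-0.82, SE 0.18) were higher. Agt and Slc6a11 are also high in astrocytes of thalamus and hypothalamus. Genes that mark astrocytes in general, such as Gja1 (0.074, SE 0.036), Aldh1l1 (-0.16, SE 0.064) and Sox9 (0.18, SE 0.12), were not called, though Aldh1l1 was called higher in striatum when any of hippocampus replicates 4 and 5 or striatum replicates 1 and 2 was left out.

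Of 20 microglial genes 13 were not called, 6 were higher in striatum and 1 in hippocampus, beside 24.2% and 23.1% of all genes. Tmem119 was at 523 (447 to 574) in hippocampus and 538 (409 to 631) in striatum, with a 95% interval of -0.20 to 0.20 for the difference, and P2ry12 at 1075 (1012 to 1171) and 1103 (943 to 1296). The called genes, such as Trem2 (-0.30, SE 0.11), Tyrobp (-0.24, SE 0.09) and C1qb (-0.22, SE 0.061), differed little. With striatum replicates 2, 3 and 6 alone 2 microglial genes were called higher in striatum, which did not include Trem2, Tyrobp or C1qb (-0.14), and without hippocampus replicate 1 or striatum replicate 1 or 4 neither Trem2 nor Tyrobp was called. Endothelial and mural genes had 5 higher in hippocampus and 13 of 18 not called. Acta2, smooth muscle actin, gave the largest of these differences (0.65, SE 0.17). Of the 5 blood cell genes limma called 0, and 0 had an unadjusted p under 0.05.

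Markers of the linings of the brain were compared as well. Meningeal fibroblast genes were higher in hippocampus in 9 of 12, with a median of 0.87. Dcn, decorin, was at 1516 (1197 to 1639) in hippocampus and 369 (262 to 416) in striatum (2.03, SE 0.11), and Col1a1 (0.93, SE 0.14) and Fn1 (0.95, SE 0.084) were higher in hippocampus. Choroid plexus genes were high and uneven in both regions: Ttr ranged from 1298 to 59896 in hippocampus and from 20131 to 81544 in striatum and was not called, and 10 of 15 genes of that list were not called. The 5 that were called were higher in striatum and include the cilia genes of ependymal cells Foxj1 (-1.12, SE 0.14), Ccdc153 (-1.40, SE 0.21) and Tmem212 (-1.35, SE 0.14).

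Genes of cortical layers were found on both sides. Of 13, 4 were higher in hippocampus, 5 in striatum and 4 not called, beside 23.1% and 24.2% of all genes higher in each region. Lamp5, a gene of upper cortical layers and of interneurons, was at 1811 (1656 to 2563) in striatum, 918 (774 to 1107) in hippocampus and 7051 (6341 to 7461) in prefrontal cortex (-1.06, SE 0.11). Rspo1 was higher in striatum (-2.39, SE 0.28), and Cux2, an upper-layer factor, was not called.

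The same contrast was made in libraries that played no part in the wild-type comparison. In heterozygotes, with 5 hippocampus and 6 striatum libraries, 7535 of the same 17024 genes (44.3%) were called, 6386 of them among the 8057 wild-type calls and in the same direction. Of the 1843 genes called with at least a 2-fold difference in wild type, 1702 (92.3%) were called in the same direction in heterozygotes. In heterozygotes Drd2 differed by -5.44 (SE 0.12), Ppp1r1b by -3.61 (SE 0.13), Neurod6 by 6.21 (SE 1.02), Gabra5 by 2.21 (SE 0.06) and Mbp by -0.66 (SE 0.066). A single gene was called in both genotypes with opposite signs, Kif15, a mitotic kinesin, at 1.49, SE 0.42 in wild type and -1.32 (SE 0.46) in heterozygotes. Its wild-type libraries overlapped, from 21.9 to 71.9 in hippocampus and from 6.35 to 36.5 in striatum. It was named after its values were seen.

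The interaction of region and genotype was tested directly. Limma called 0 of 17024 genes (0.0%), with 604 at an unadjusted p under 0.05 and 0.9999 as the smallest adjusted p. By chance alone about 851 genes would have an unadjusted p under 0.05. For Neurod6 the interaction was -0.10 (SE 1.37), for Drd2 -0.074 (SE 0.20) and for Kif15 2.82 (SE 0.65).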

How the data were processed

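Total RNA of dissected hippocampus, striatum and prefrontal cortex was made into libraries with the TruSeq RNA Sample Prep Kit v2, per the labels' protocols. Per the submitters' processing notes the build was GRCm38, and the tools listed, with no role given, were DESeq2 1.26.0, R 3.6.2 and Salmon 1.1.0. The deposited values are a signal per gene, named DESeq counts by the authors and called normalized counts here: estimated read counts, not whole numbers, scaled per library over all 34 libraries. Whole reads could not be recovered from them, so no count model was fitted and the depth in reads is unknown. Column sums follow the scaling and are no measure of depth. The column codes, which recur in both regions, are not explained in the labels, and the code of prefrontal cortex replicate 6 also stands on heterozygous columns of the other regions.

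Genes with a mean of at least 10 over the 12 libraries were fitted as log2(value + 1) with limma 3.58.1 in R 4.3.3 (trend and robust variance), 6 against 6 libraries without covariates, and p-values were adjusted by Benjamini-Hochberg over all 17024 genes. Heterozygotes and the interaction of region and genotype were fitted likewise. The procedure was tested on simulated data with the same 17024 genes. Of 100 genes changed by 0.5 on the log2 scale 61 were called, and of 100 changed by 1, 81 were called. In all 147 genes were called there, 5 of them unchanged. Far more genes, 8057, were called in the wild-type data, which changes the cutoff on p, so these shares do not describe that comparison. The 41 gene lists hold 764 genes. Members and lists were chosen with earlier results of these data known. Of these genes Agrp, Chrna6, Drd4, Gpr52, Hcrt, Pou4f1 and Slc6a3 were not matched, Grin3b and Gsx2 lay under the minimum, and Sfrp3 was matched as Frzb. Named genes are list members, the 15 called genes with the largest difference in each direction and a mean of at least 200 in the higher region, and those said to be chosen after their values were seen. Promoters of Serpina9, Adora2a and Penk are not in the table used. Some genes that the rule would name are not reported here. Counts were repeated under other pseudocounts, minimum means, scalings, models and sets of libraries.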

Additional observations from a re-analysis of the deposited data

Results flagged for a closer look

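Among 294 groups of 6 libraries examined (106 genes and 41 lists in each region), the highest or lowest library stood apart from the other 5 by Dixon's criterion in 12, where chance gives about 1 in 20. The choroid plexus and ependyma list was lowest in hippocampus replicate 6, at a mean log2 level of 6.08 against 7.94 to 8.65 in the others. That library was also highest in Agt, at 802 normalized counts against 573 to 646.

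Further values stood apart in single hippocampus libraries. Prox1 was lowest in replicate 2, at 3442, and Sema3a highest in the same library, at 213. In replicate 4 Tcf7l2 was highest at 259 and Gdnf highest at 6.77.

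In striatum Mbp was lowest in replicate 1, at 86765 against 102172 to 106712 in the others. Replicate 2 was the lowest for Lct, listed at 0. Replicate 3 was highest in Shisa6, at 1009, and in Slc9a4, at 16.3. Crabp1 was highest in replicate 4, at 143, and Gabbr2 in replicate 5, at 5249.9.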

How the results depend on the processing

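The count of 8057 called genes lay between 7652 and 7928 when any single library was left out, and no called gene named in the text changed direction under any alternative run. With a mean of at least 50 required, 645 instead of 1061 genes were called at least 2-fold higher in striatum, among fewer genes tested. Scaling all libraries to equal totals moved the median of all genes from -0.01 to -0.062 and the share of calls higher in hippocampus from 48.9% to 39.7%. It left 4 instead of 7 glutamate transport genes, 1 instead of 2 oligodendrocyte precursor genes, 0 instead of 1 microglial gene and 3 instead of 5 endothelial genes higher in hippocampus, and put 1 endothelial gene higher in striatum. With only the libraries whose column code starts with 35, 3 instead of 5 immediate early genes and 3 instead of 6 microglial genes were higher in striatum, and 1 precursor gene and 0 microglial genes in hippocampus, and the calls of Fos, Grik5, Oprd1, Tbr1, Trem2 and Tyrobp were lost. Fitting all 18 wild-type libraries put 1 endothelial gene higher in striatum. The cause of these shifts was not tested beyond the settings themselves.

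The split of the striatum libraries was chosen after seeing the data. Replicates 2, 3 and 6 alone gave 2 microglial genes higher in striatum and 0 in hippocampus. Replicates 1, 4 and 5 alone gave 3 immediate early genes higher in striatum and, higher in hippocampus, 0 GABA synthesis genes, 1 precursor gene, 0 microglial genes and 2 endothelial genes. With 1, 4 and 5 alone the differences of Vip (0.91), Robo3 (1.17), Fos (-0.17), Prkcd (-0.65) and Maob (-0.29) were over 1.5 times smaller, and with 2, 3 and 6 alone those of Chrdl1 (-0.45) and Htr2a (-0.48). Trem2 was not called with either set. Genes not called with all libraries were called with 2, 3 and 6 alone for Car2, Chrna4, Chrnb2, Grin2c, Mef2c, Prkaca, Prkcb and Sstr2, and with 1, 4 and 5 alone for Bcl11b, Cnr1, Ctnnb1, Gja1, Glrb, Gnas, Homer1, Ikzf1, Nr2f2 and Prkcb. Leaving out 1 library at a time gave 0 to 1 microglial genes higher in hippocampus and 3 to 7 in striatum, 3 to 6 endothelial genes higher in hippocampus and 0 to 1 in striatum, and 0 to 1 blood genes higher in hippocampus. Genes not called with all libraries but called without some single library were Aldh1l1, Car2, Chrna4, Chrnb2, Cnr1, Ctnnb1, Cux2, Gja1, Gnas, Ikzf1, Mapk3 and Pvalb. A pseudocount of 10 shrank differences of genes near 0 in a region, such as Isl1 from -8.28 to -5.34.

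Same-numbered wild-type hippocampus and striatum libraries share their column code, so in wild type a replicate block and a code block are the same fit. Correlations of their deviations were 0.086, 0.107, 0.111, 0.0212, 0.0489 and 0.0473. Of 6 hippocampus libraries 4 correlated best with the striatum library of their own number. The labels do not explain the codes, so the main fit used no pairing. Whether same-numbered libraries came from the same mouse was not tested. With the replicate block 7847 genes were called in wild type, 1 endothelial gene was higher in striatum and 1 blood gene in hippocampus. In heterozygotes same-numbered libraries do not all share a code, so there the block followed the replicate number and not the code. With that block 7200 genes were called in heterozygotes, and 0 for the interaction.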
